A study of Mus musculus with 6 samples.

Results

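Binding of SALL4 was examined around 8 genes that act in the founding and upkeep of the mouse germ line, namely Prdm1, Prdm14, Tfap2c, Dppa3, Nanos3, Kit, Dazl and Zbtb16. SALL4, a DNA-binding protein of the zinc-finger class, is needed in germ cells and in spermatogonia. The genes were chosen by name, and the intervals of each peak list that touched the gene body or the 50 kb on either side of it were taken, with overlapping lines of a list merged. Of 21887 coding genes in the RefSeq gene table for GRCm38, these are 8. Their windows held 91 of the 55058 intervals of wild-type replicate 1, 74 of the 48295 intervals of wild-type replicate 2, and 0 of the 34 and 0 of the 39 intervals of knockout replicates 1 and 2.

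The cells were mouse embryonic stem cells kept in 2i + LIF medium, which holds 2 kinase inhibitors and a cytokine. The wild-type group was a Sall4 F/F line, whose Sall4 gene carries recombination sites on both sides and still works, and the other group was a Sall4 -/- line. Each had 2 libraries made with a SALL4 antibody by CUT&RUN. In this assay a nuclease is brought to an antibody inside permeabilised cells, and the DNA it releases is sequenced to map where the antibody sat. Each genotype is represented by 1 line, nothing in the labels says that the 2 libraries of a line came from separate cultures, and the 2 IgG libraries were not analysed here. The cells are stem cells and not germ cells, and the data hold no measure of transcription.

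Primordial germ cells are set aside from the epiblast of the early embryo when BMP signals switch on a small set of transcription factors. PRDM1 (also called BLIMP1) represses the somatic programme, PRDM14 restores features of pluripotency and is also active in naive stem cells, and TFAP2C (AP2γ) acts with both. DPPA3 (Stella) marks the founding cells and guards DNA methylation in the zygote. NANOS3 and DAZL bind RNA and are needed for survival and for further germ cell development. KIT is the receptor for stem cell factor that migrating germ cells and differentiating spermatogonia depend on, and ZBTB16 (PLZF) keeps spermatogonial stem cells from differentiating.

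SALL4 regions were dense around Prdm14, Prdm1, Dppa3, Kit and Tfap2c. They were few at Zbtb16 and Nanos3, and none was called in both replicates at Dazl. A consensus region is one called in both wild-type lists, with at least 1 bp shared, that overlaps no knockout interval. There were 66 such regions in the 8 windows, of 37997 in the genome. They numbered 19 at Prdm1, 15 at Prdm14, 12 at Kit, 8 at Dppa3, 7 at Tfap2c, 4 at Zbtb16, 1 at Nanos3 and 0 at Dazl. Thus 7 of 8 genes had a consensus region in the window, beside 68.7% of all coding genes with windows made in the same way. A count of genes that have any region is therefore near the background, and the windows differ mainly in how many regions they hold. The numbers by gene fall under stricter settings. At a −log10 q-value of at least 10 they were, from Prdm1 to Dazl as listed, 8, 7, 4, 3, 4, 1, 1 and 0. With flanks of 10 kb they were 12, 8, 10, 2, 2, 2, 0 and 0.

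The depth of single intervals was low. Lists of peaks give no read totals, so the number of fragments stacked at each summit was recovered from the fold enrichment and p-value that the authors' peak caller gave. In the 8 windows the summits held 4 to 50 fragments in wild-type replicate 1 (median 10) and 4 to 49 in replicate 2 (median 12). At Sall4 itself, taken with the same flanks, the lists of wild-type replicates 1 and 2 held 9 and 8 intervals and both knockout lists held 0. All 34 and all 39 knockout intervals lay on X and Y, where none of the 8 genes lies.

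The number of intervals was then set by genotype. Prdm1 had 27 and 20 intervals in wild-type replicates 1 and 2, Prdm14 had 18 and 18, and Dppa3 had 16 and 9. Kit had 13 and 12 intervals, Tfap2c had 8 and 9, Zbtb16 had 6 and 4, Nanos3 had 2 and 2, and Dazl had 1 and 0. Every one of the 8 genes had 0 intervals in both knockout lists. Summed over the genes, wild type had 82.5 ± 12.0 intervals (SD, n = 2) against 0 and 0 in the knockout, and the genotypes did not overlap. The log2 difference, with 1 added to each sum, was 6.38, beside a spread of 0.208 (SD, log2) between the wild-type libraries. Its size depends on the 1 added, since both knockout sums are 0. With a two-sided exact permutation test over these libraries p was 0.333, which is the lowest value that 2 against 2 allow, so the design cannot pass 0.05. An interval lay in the same kind of window for 75.9% and 73.3% of coding genes in wild-type replicates 1 and 2, and for 0.00914% in each knockout list. The absence of knockout intervals is thus shared with nearly all coding genes. The knockout lists had a stricter lower limit, with a weakest −log10 p-value of 7.63 and 7.12 against 3.55 and 3.60 in wild type. Of the wild-type intervals in the 8 windows, 51 and 48 also passed the limit of 7.63.

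**Figure D1:**
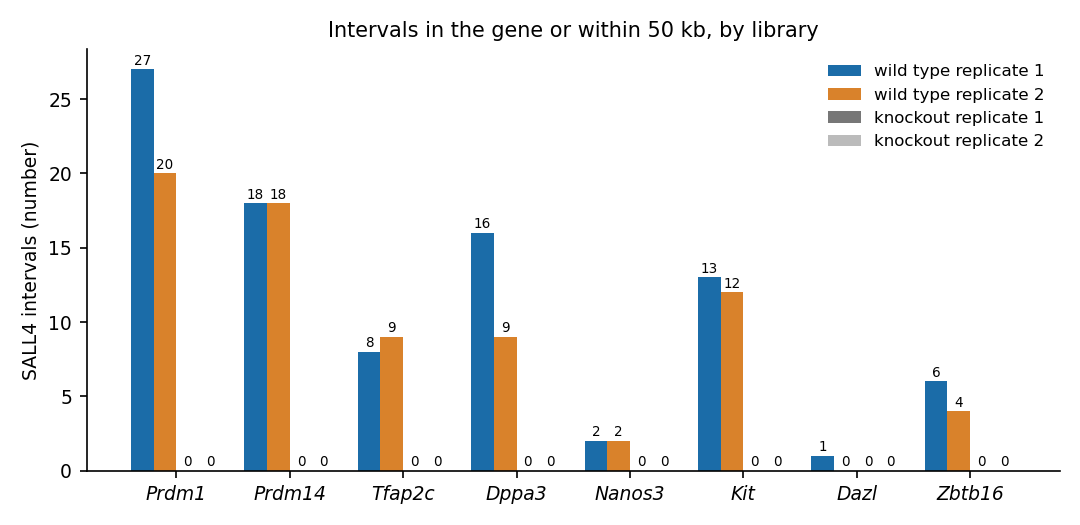
Bars give the number of SALL4 intervals in each gene body or within 50 kb of it, for each of the 4 libraries. Prdm1 reaches 27 and 20 intervals in wild type, Dazl 1 and 0, and every knockout bar is 0.

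RefSeq promoters, each 250 bases before to 50 after a transcription start in GRCm38.p6, were given for 4 of the 8 genes (Prdm1, Nanos3, Kit and Dazl), and none was given for Prdm14, Tfap2c, Dppa3 and Zbtb16. No interval of either wild-type list overlapped any of the 4. Overlap with a consensus region was rare at promoters in general, with 723 of 21263 promoters of coding genes, so nothing is read from its absence at these 4. The 250 bases before the start are shown 5′ to 3′ for a gene with many regions nearby (Prdm1), one with a region just inside it (Kit) and one with none (Dazl), with each CG pair in capitals. They lie at chr10:44458749-44458998 on the minus strand, chr5:75574737-75574986 on the plus strand and chr17:50293621-50293870 on the minus strand.
Prdm1: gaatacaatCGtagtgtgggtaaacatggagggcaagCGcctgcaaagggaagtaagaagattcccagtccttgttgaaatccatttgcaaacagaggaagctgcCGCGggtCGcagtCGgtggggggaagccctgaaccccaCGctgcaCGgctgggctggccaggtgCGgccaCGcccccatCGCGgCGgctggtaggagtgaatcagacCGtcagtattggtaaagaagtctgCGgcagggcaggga
Kit: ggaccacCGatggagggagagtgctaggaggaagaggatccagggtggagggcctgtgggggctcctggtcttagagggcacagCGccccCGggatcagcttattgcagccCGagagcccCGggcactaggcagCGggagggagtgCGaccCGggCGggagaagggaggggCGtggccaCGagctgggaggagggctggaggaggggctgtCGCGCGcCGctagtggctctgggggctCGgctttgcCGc
Dazl: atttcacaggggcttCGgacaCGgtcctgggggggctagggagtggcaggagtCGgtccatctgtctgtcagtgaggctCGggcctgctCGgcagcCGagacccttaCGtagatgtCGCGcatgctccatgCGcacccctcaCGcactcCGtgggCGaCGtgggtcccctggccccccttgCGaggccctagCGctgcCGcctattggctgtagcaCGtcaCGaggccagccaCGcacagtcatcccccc
The share of G and C in these stretches was 59.2% for Prdm1, 70.8% for Kit and 67.2% for Dazl, with 15, 17 and 20 CG pairs. The fourth one, of Nanos3, had 56.4% and 3 CG pairs. Over the 300 bases of all promoters of coding genes the median share was 56.3%, and 54.3% in those that overlapped a consensus region. Prdm1 and Nanos3 lie closest to these values, but the 250 and the 300 bases are unlike stretches. SALL4 is known to bind AT-rich DNA, and AATATT and the shorter ATATT, which AATATT contains, were searched on both strands of the 300 bases. Neither was found in any of the 4, and neither was the E-box CACGTG. Among all promoters of coding genes 5.996% held AATATT, 22.0% held ATATT and 7.84% held CACGTG. Those that overlapped a consensus region held them in 5.12%, 25.7% and 7.61%. Such matches are a description of letters only, and the sequence under the regions themselves was not used here.

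At Prdm1 (gene ID 12142, chr10:44437174-44528558, minus strand), wild type had 19 consensus regions, which is 9.93 per 100 kb of window. The strongest lay inside the annotated gene at chr10:44520215-44521300, with a fold enrichment of 26.5 in replicate 1 and 22.8 in replicate 2. The fold enrichment is the authors' own value for a peak and compares the summit with its local background. Its summit rested on 38 and 33 fragments. Its rank was at 97.8% of the list or higher in both. The gene table starts Prdm1 69.81 kb upstream of the start in the promoter table, so that 13 of the 19 regions lie upstream of that second start and 6 downstream. The region nearest the upstream start, chr10:44528559-44528871, lay 1 bp outside the gene and had fold enrichments of 11.9 and 10.5, on 17 and 15 fragments. Within 25 kb of this start there were 10 regions. The nearest region to the promoter-table start was 12.4 kb away. Regions inside the gene of the gene table numbered 8 and regions beyond it 11, and no other coding gene lay in the window. Of the 8, all but chr10:44443940-44444353 lay upstream of the promoter-table start, the strongest by 61.5 kb.

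At Prdm14 (gene ID 383491, chr1:13113428-13127163) there were 15 regions in a window of 114 kb, the highest density of the 8 genes at 13.2 per 100 kb. Only 1 lay in the gene, at chr1:13115223-13115648, with fold enrichments of 11.6 and 11.4. Another 10 lay at lower coordinates than the gene and 4 at higher ones. The strongest was chr1:13084637-13085451, 28.0 kb from the gene, with fold enrichments of 28.4 and 25.1 on 41 and 49 fragments. It had the highest mean fold enrichment of the 66 regions, 26.8 ± 2.30 (SD, n = 2), and its summit lay in no annotated gene. A weak region, chr1:13128095-13128267, lay 0.932 kb from an end of the gene, with fold enrichments of 4.13 and 4.67 on 5 and 6 fragments. Summits of 2 regions lay within Gm39592, which encodes a long non-coding RNA. Neighbouring regions at Prdm14 were a median of 3.27 kb apart, against 16.4 kb over all consensus regions.

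At Tfap2c (gene ID 21420, chr2:172545678-172558622) none of the 7 regions lay in the gene, and their density was 6.20 per 100 kb. Of these, 2 stood out by strength. The stronger, chr2:172577160-172577652, had fold enrichments of 24.8 and 24.0 on 50 and 47 fragments, the most of any summit in the 8 windows in replicate 1, and lay 18.5 kb from the gene, within Gm36038, a gene for a long non-coding RNA. The other, chr2:172544516-172544901, lay 0.777 kb from an end of the gene and had fold enrichments of 21.0 and 17.5 on 32 and 27 fragments. Both ranked in the top 10% of both lists. The replicates differed little at the first, with an SD of 0.569 around a mean of 24.4, and by more at the second, with an SD of 2.43 around 19.2.

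At Dppa3 (gene ID 73708, chr6:122626424-122630271) there were 8 regions around a gene of 3.85 kb, or 7.70 per 100 kb, all outside the gene. The strongest, chr6:122608282-122608896, had fold enrichments of 13.2 and 12.1 on 25 and 23 fragments, and its summit lay in the neighbouring gene Gdf3, which encodes a TGF-beta family ligand. Another at chr6:122624371-122625094 lay 1.33 kb from the gene, with fold enrichments of 11.7 and 10.6. The window held 16 intervals in replicate 1 and 9 in replicate 2, the widest gap in proportion among the genes with more than 3 regions. Of the replicate 1 intervals, 8 were absent from replicate 2. Among them was chr6:122626271-122626390, which ended just before the gene, with a fold enrichment of 6.35 on 9 fragments, and was singled out after its value was seen. Without replicate 2 the number of regions at Dppa3 was 16 instead of 8. The windows of Dppa3 and of Nanog, a core pluripotency gene beside it, shared 1 region.

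Kit (gene ID 16590, chr5:75574987-75656722, plus strand) had 12 regions, or 6.60 per 100 kb. Of the 12, 10 lay within the gene, which makes up 81.7 kb of its 182 kb window, and 2 outside it. Prdm1, of similar length at 91.4 kb in the gene table, had 8 within it. All of these but chr10:44443940-44444353 lay upstream of the promoter-table start of Prdm1. The region nearest the start of Kit, chr5:75576650-75577486, began 1.66 kb downstream of it and had fold enrichments of 15.6 and 11.6. The strongest, by the lower of its ranks, lay 36.8 kb upstream at chr5:75537783-75538148, with fold enrichments of 15.8 and 17 on 22 and 24 fragments. Most regions inside Kit were weaker. Their median rank, together with the outside ones, was at 53.8% of the lists, the lowest of the genes with more than 1 region. In 8 of 12 the value was higher in replicate 1, with a median log2 ratio of replicate 2 to replicate 1 of −0.32, beside −0.13 over all consensus regions.

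**Figure D2:**
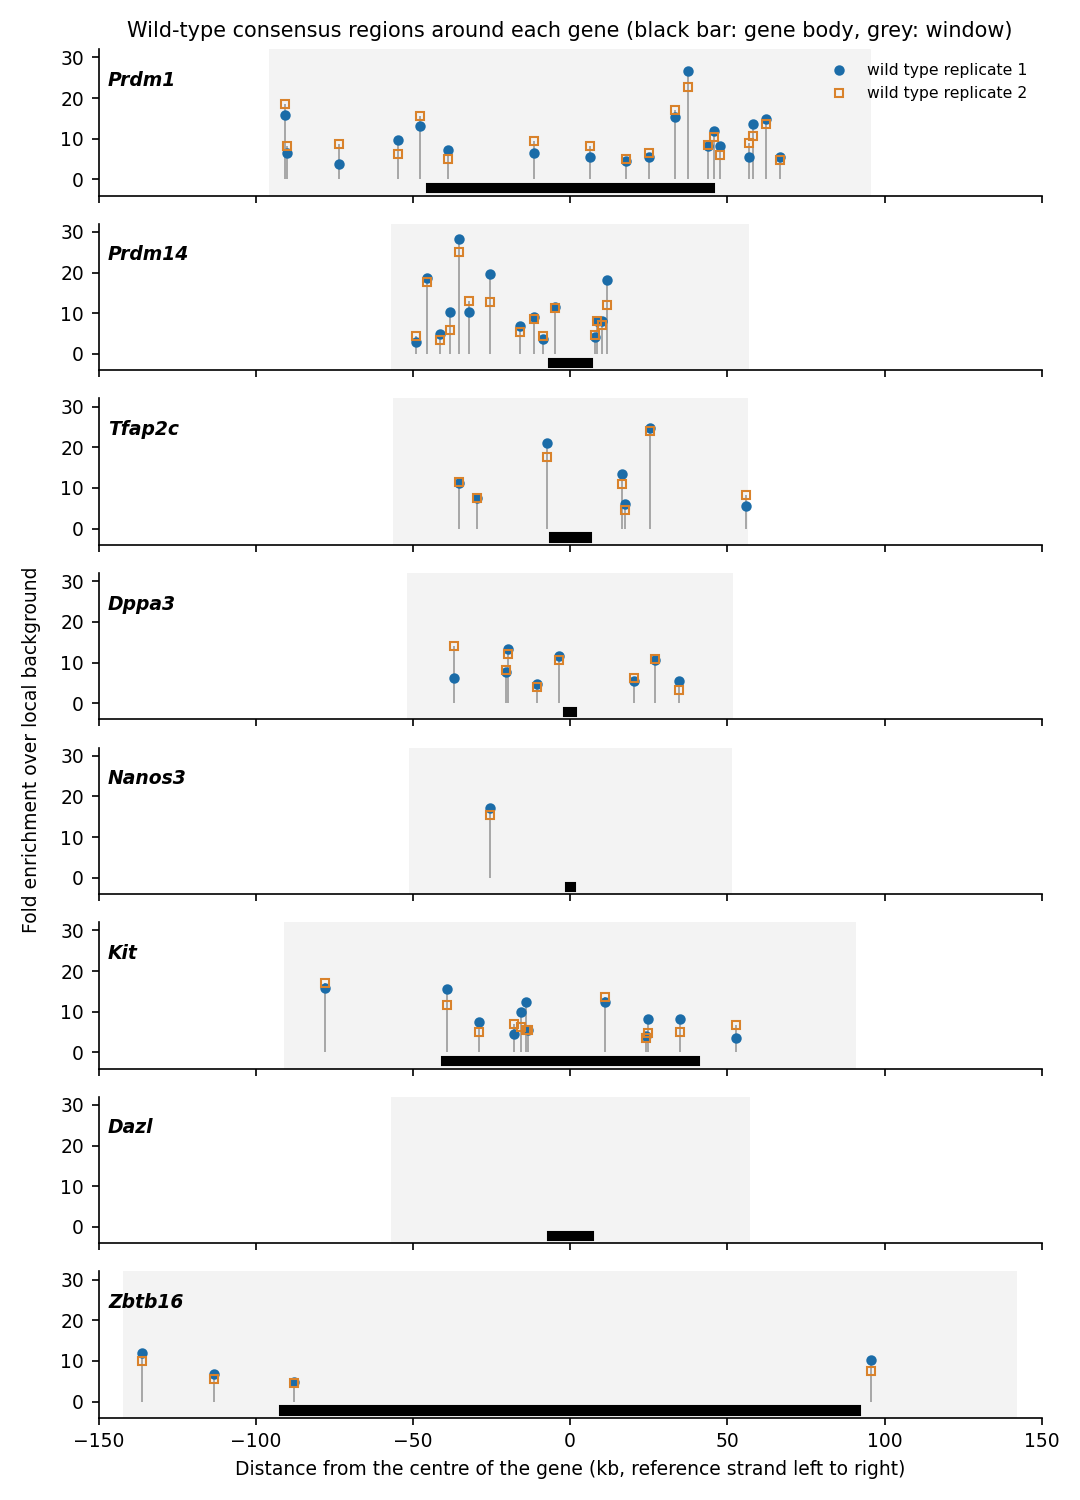
Each panel plots the fold enrichment of the consensus regions of a gene in wild-type replicates 1 (filled circles) and 2 (open squares) against the distance of the summit from the centre of the gene in kb. Black bars are gene bodies and grey areas the windows. Regions crowd on one side of Prdm14 and around the right end of Prdm1, lie within Kit for 10 of its 12, and are absent at Dazl.

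Zbtb16, Nanos3 and Dazl had the fewest regions. Zbtb16 (gene ID 235320, chr9:48651797-48836225) spans 184 kb and had 4 regions, or 1.41 per 100 kb. Its strongest, chr9:48607623-48607989, lay 43.8 kb from the gene, with its summit only 101 bp from the coding gene Nnmt. This region had fold enrichments of 12.0 and 10.01 on 19 and 16 fragments. A second region lay 3.32 kb from an end of the gene at chr9:48839542-48839864, with fold enrichments of 10.2 and 7.54. Only 1 region lay inside the gene, with values of 4.73 and 4.67 on 6 fragments in replicate 2.

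Nanos3 (gene ID 244551, chr8:84173733-84176552, minus strand) had 1 region, chr8:84149180-84149754, which lay in the neighbouring gene 4930432K21Rik and 26.8 kb from the start of Nanos3. It was strong, with fold enrichments of 17.1 and 15.5 on 24 and 22 fragments, and its rank was at 92.6% of the list or higher in both. The other interval of each list at Nanos3 was found in that list only, with 4 and 6 fragments. Either replicate taken alone gives 2 regions there. Dazl (gene ID 13164, chr17:50279393-50293620, minus strand) had no consensus region. Its single interval, chr17:50331351-50331567, was found in replicate 1 only, with a fold enrichment of 5.08 on 7 fragments, so that replicate 1 alone gives 1 region. The nearest consensus region lay 122.2 kb from the start of Dazl.

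Density was compared with all coding genes as a description. The median over the 8 genes was 6.40 consensus regions per 100 kb, beside a median of 0.970 and an upper quartile of 2.68 over all coding genes. Prdm14 stood at the 99.5th percentile of coding genes, Prdm1 at the 98.7th, Dppa3 at the 96.9th, Kit at the 95.1st and Tfap2c at the 94.3rd. Zbtb16 stood at the 56.5th percentile, Nanos3 at the 50.2nd and Dazl at the 15.7th, the shared rank of genes with no region. Thus 5 of 8 genes lay above the upper quartile, beside 25% of coding genes, which is fixed by the quartile. The order of the 5 is not resolved throughout. Kit at 6.60 and Tfap2c at 6.20 per 100 kb differ by less than 1 region in a window of the size of Tfap2c's, and Tfap2c had 8 intervals in one library and 9 in the other. The result depends on the flanks. In the gene bodies alone the median over the 8 genes was 0.271 per 100 kb, between the median of coding genes at that setting, 0, and their upper quartile, 0.888, which 3 of 8 genes exceeded. With −log10 q-values of at least 10 and the flanks kept, it was 2.54 per 100 kb beside 0 over all coding genes.

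**Figure D3:**
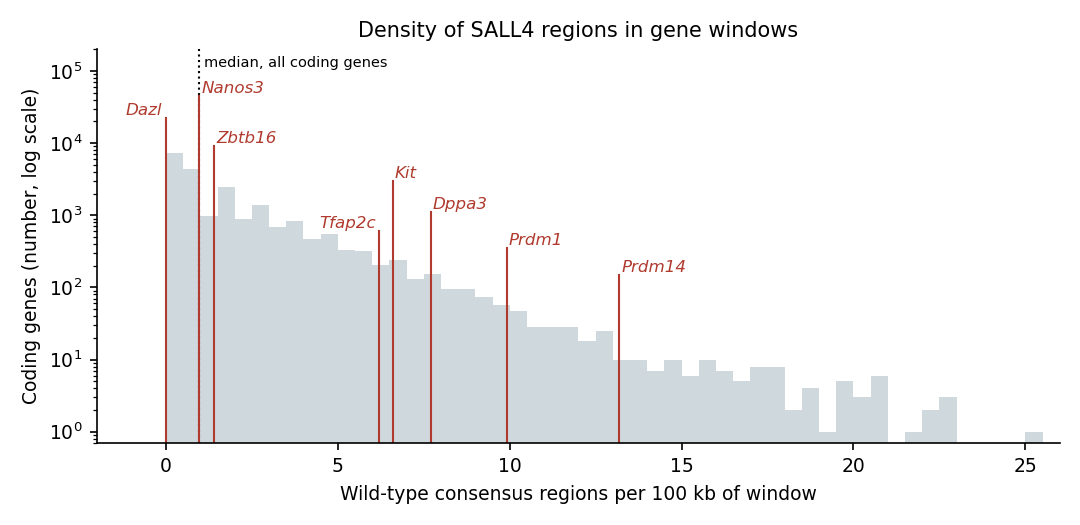
The histogram gives the number of coding genes (log scale) by consensus regions per 100 kb of window. Red lines mark the 8 genes, of which Prdm14 is highest at 13.2 and Dazl lowest at 0, and the dotted line marks the median of all coding genes, 0.970.

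Positions relative to the gene start were described next. A consensus region lay within 1 kb of the start at 3 of 8 genes (Prdm1, Prdm14 and Tfap2c), beside 6.83% of coding genes. Where the promoter table gives no strand, as for Prdm14 and Tfap2c, either end of the gene counted as the start. This was so for 4 of the 8 genes, whereas 17492 of 21887 coding genes had a strand and a single start, so the count and the share were not made alike. The count for Prdm1 rests on the upstream start of the gene table, and with the start sites of the promoter table, a choice made after seeing the data, 2 genes remained. Within 500 bp of the start only Prdm1 had a region. Replicate 1 alone gave 5 genes, with Dppa3 and Nanos3 added, and replicate 2 alone gave 2. Regions within 10 kb were found at 6 of 8 genes, beside 42.1% of coding genes, and inside the gene body at 4 of 8, beside 27.6%.

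Most summits lay outside annotated genes, though some of these were close to one. By the gene table, 20 of the 66 summits lay in one of the 8 genes, 7 in another gene and 39 in none. This takes Prdm1 with its upstream start. The share inside a gene was 40.9%, against 57.5% of all consensus summits in the genome. The gene table holds no exons, so introns and exons were not told apart. The regions were 107 to 1086 bp wide with a median of 354.5 bp, beside 327 bp over all consensus regions. Prdm14 had the largest share of its window covered, 6.11%, followed by Prdm1 at 4.03% and Dppa3 at 3.38%, and Zbtb16 had 0.414%.

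Strength was described by rank within a list. The median region of the 66 stood at a percentile of 69.1 in fold enrichment, averaged over the lists, beside 59.3 for all consensus regions. The direction turned without flanks, where the regions in the gene bodies stood at 56.7. In single lists, unshared intervals included, the intervals in the windows stood at 58.6 in replicate 1 and 69.6 in replicate 2, to be read against the middle of a whole list and not against 59.3. Their median fold enrichment was 6.61 beside 5.86 for the whole list in replicate 1, and 7.54 beside 5.56 in replicate 2. Regions in the top 10% of both lists numbered 9 of 66, which is 13.6%, beside 10.7% of all consensus regions. They were 3 at Prdm1, 2 at Prdm14, 2 at Tfap2c, 1 at Kit and 1 at Nanos3. The share in the windows is near the background.

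The wild-type replicates were called separately, and their overlap was as follows. In the windows, 67 of 91 replicate 1 intervals had a partner in replicate 2, a share of 73.6% with 95% Wilson bounds of 63.7% and 81.6%. Conversely 66 of 74 replicate 2 intervals had a partner in replicate 1, a share of 89.2% with bounds of 80.1% and 94.4%. The bounds cover counting error only. The same shares over the whole lists were 70.4% and 79.3%. Intervals found in 1 list had medians of 6 and 5.5 fragments in replicates 1 and 2, against 15 and 13 for shared ones. Prdm1 and Dppa3 each contributed 8 of the 24 intervals found in replicate 1 alone.

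Across the 66 regions the fold enrichments of the replicates had a Spearman's rho of 0.800, beside 0.771 over all consensus regions. Regions of a gene share a library and a neighbourhood, so this is a description. Between the replicates 63 of 66 regions differed by no more than 2-fold, beside 96.9% of all consensus regions. The other 3 lay at Prdm1, Dppa3 and Kit. At chr10:44409187-44409368 near Prdm1 the fold enrichments were 3.83 and 8.81 on 5 and 13 fragments. At chr6:122591222-122591477 near Dppa3, in the gene Apobec1, they were 6.13 and 14.1 on 17 and 27 fragments. At chr5:75601606-75601876 in Kit they were 12.4 and 5.44 on 17 and 7 fragments. These 3 do not share a direction, since replicate 2 is higher at the first and second and lower at the third.

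**Figure D4:**
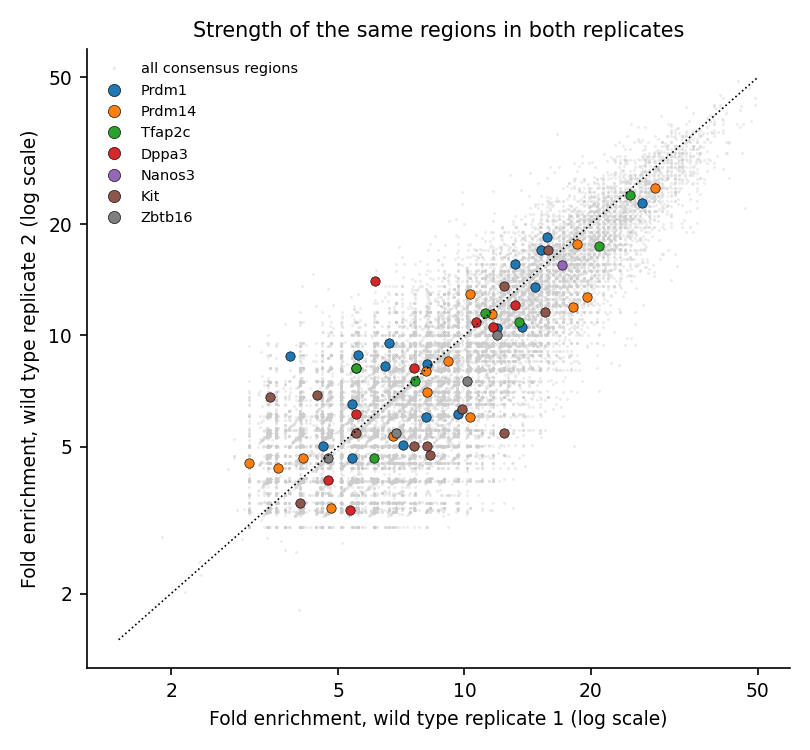
Fold enrichment in wild-type replicate 1 (x axis, log scale) is plotted against replicate 2 (y axis, log scale) for all 37997 consensus regions (grey) and the 66 regions at the 8 genes (colours). The coloured points follow the dotted line of equal values, and 63 of 66 differ by no more than 2-fold.

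Other germ cell genes were counted in the same way. Of 30 further genes of germ cell specification, migration and spermatogonia, 21 had a consensus region, beside 68.7% of coding genes, and their median density was 1.14 per 100 kb. The upper quartile of coding genes was exceeded by 8 of 30, beside 25% of coding genes. The 8 are not independent, as the windows of Dppa2 and Dppa4 share all 8 of their regions. The highest were Ifitm3, a membrane protein gene of early germ cells, at 13.8 per 100 kb with 14 regions, and Etv5, a transcription factor of spermatogonial stem cells, at 13.3 with 21. Ifitm1 followed at 11.7 with 12 regions, 11 of which it shares with the window of Ifitm3. With flanks of 10 kb, Ifitm3 had 0 regions, Etv5 had 18 and Ifitm1 had 9, so those counted for Ifitm3 all lay farther away. The 9 genes with no consensus region were Nanos2, Mael, Cxcr4, Cxcl12, Tdrd1, Ret, Sohlh1, Sohlh2 and Lhx1. Kitl, which encodes the ligand of KIT, had 4 and 4 intervals in wild-type replicates 1 and 2 and 3 consensus regions, or 1.62 per 100 kb, against 6.60 at Kit. All 30 had 0 intervals in both knockout lists.

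Naive pluripotency genes were the closest comparison, as Prdm14 belongs to both settings. All 9 of Klf2, Klf4, Klf5, Esrrb, Tbx3, Tfcp2l1, Zfp42, Nr5a2 and Nanog had a consensus region, with a median of 6.25 per 100 kb. The range was 3.45 at Esrrb to 17.4 at Klf5, so that Prdm14, Prdm1, Dppa3, Kit and Tfap2c lie inside it and Zbtb16, Nanos3 and Dazl below it. These differences between lists were not tested. Among 4517 coding genes of a length within 1.5 times that of Prdm14, the genes most like it in interval density over the 4 libraries were Hspb8, Mrpl45 and Coil. Their distances on the log2 scale of intervals per 100 kb plus 1 were 0.0853, 0.0935 and 0.101.

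**Figure D5:**
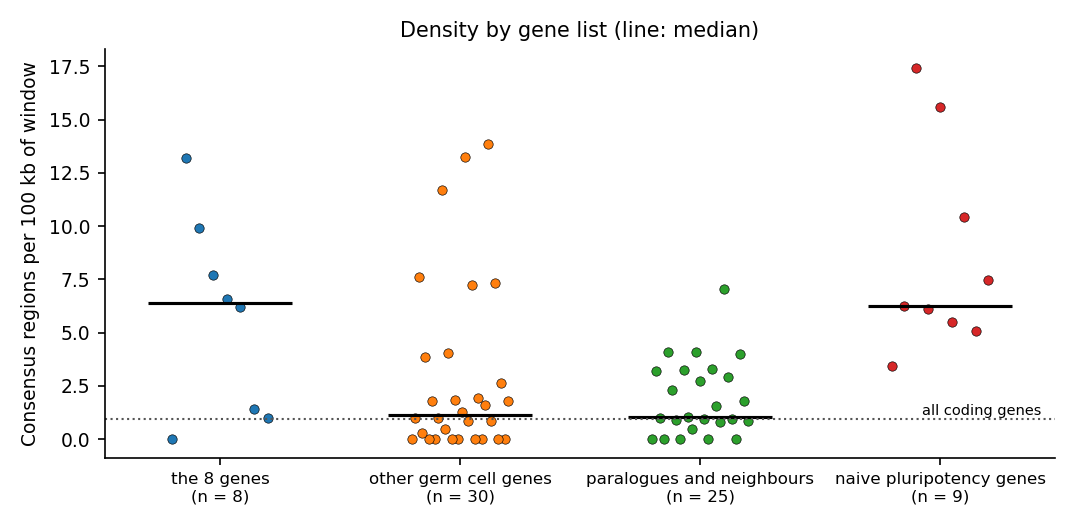
Each point is a gene, placed by its consensus regions per 100 kb of window in 4 gene lists, and black lines are medians. The position of points across a column has no meaning. The 8 genes have a median of 6.40, the 30 other germ cell genes 1.14, the 25 paralogues and neighbours 1.05 and the 9 naive pluripotency genes 6.25.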

How the data were processed

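CUT&RUN peak lists of 4 SALL4 libraries were used, 2 per genotype, grouped by sample title. Per the submitters' processing notes, Trim Galore 0.6.0, cutadapt 1.18, FastQC 0.11.8, BWA 0.7.17 and MACS2 2.1.1.20160309 were used, with the build GRCm38 (mm10). Settings are not given in the sources used here. Each list is of 1 SALL4 library, and whether an IgG library served for its background is among the settings not given. The authors' files give a score (10 times the −log10 q-value, cut to a whole number), a fold enrichment (a deposited ratio of summit to local background), and p-values and q-values as −log10 per summit. These values rank and filter intervals within a list.

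Lines sharing an interval were merged, keeping the highest fold enrichment. Whole summit pileups were recovered from the fold enrichment, with a pseudocount of 1, and the Poisson p-value, within 0.0001 in −log10 p. On simulated summits 100% were recovered, and 100% of 200 simulated windows were counted correctly. Coordinates are written from 1. Genes come from the RefSeq table for GRCm38.p6 (21887 coding genes, without those of the mitochondrion, and 17492 with a strand from the promoter table).

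The genes and gene lists were chosen with earlier results of these data known. Regions named are the one with the best lower rank in both lists for each gene and those within 1 kb of its start. Other regions named, among them those over 2-fold apart between replicates, were chosen after their values were seen. The number of intervals was compared by an exact permutation test, and other values are descriptive. The alternatives changed thresholds, flanks, overlap rules and libraries. Python 3.11.15, numpy 2.4.6, scipy 1.17.1, pandas 2.3.3 and matplotlib 3.10.9 were used.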

Additional observations from a re-analysis of the deposited data

How the results depend on the processing

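All knockout intervals lie on X and Y, away from the 8 genes, so no alternative could turn the direction of the difference between genotypes, and its size rests on the 1 added to each sum. The log2 differences ran from 4.61 without flanks to 6.84 with flanks of 100 kb, and from 6.23 to 6.52 with one library left out. A fit with a replicate block, which pairs libraries of the same number, gave 6.38. Its exact sign-flip test gave p = 0.5, which no 2 pairs can go below. Whether the numbers pair the libraries was not tested, as both knockout values are 0.

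The number of consensus regions, 66, was 28 at a −log10 q-value of at least 10, 25 at a fold enrichment of at least 10, 41 at a −log10 p-value of at least 8, 36 with flanks of 10 kb and 20 without flanks, all of which keep fewer by construction. It was 66 to 91 with one library left out. The median density, 6.40 per 100 kb, was 2.54, 2.27, 3.31, 7.23 and 0.271 under the same settings, 4.90 with flanks of 100 kb, 5.13 with a reciprocal overlap of 50%, and 6.40 to 7.29 with one library left out. Above the upper quartile of coding genes lay 3 of 8 genes without flanks, and 5 or 6 in the other settings that kept both replicates. Without flanks 4 genes had a region instead of 7, and 7 to 8 did with one library left out. The mean share of intervals found in the other replicate, 81.4%, was 92.9% at a fold enrichment of at least 10 and 66.2% with the reciprocal overlap. The median percentile, 69.1, was 56.7 without flanks, below the 59.3 of all consensus regions, and 72.1 with the reciprocal overlap. With one library left out it was 58.6 to 69.6, where a lone wild-type library is ranked against its whole list and 59.3 does not apply. Genes with a region near the start, 3, were 1 within 500 bp, 6 within 5 kb and 2 to 5 with one library left out. Where a cause is not given by construction, the cause was not tested. Most single intervals rest on few fragments, which limits how firmly a weak region can be placed.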

Other observations

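Paralogues of the 8 genes, and neighbours or relatives of Kit, were counted in the same windows, 25 genes in all. Of these, 20 had a consensus region, beside 68.7% of coding genes, which is near the background. Their median was 1.05 per 100 kb, and 9 exceeded the upper quartile of coding genes, beside 25% of coding genes. Among 13 further genes of the Prdm family, which share the PR domain of PRDM1 and PRDM14, the highest densities were 3.30 at Prdm9, the gene that places meiotic recombination, and 3.20 at Prdm4. Prdm11 and Prdm15 had no interval in any list. Tfap2a had 5 regions, or 4.02 per 100 kb, Tfap2b had 2, and Tfap2d and Tfap2e had none, against 7 at Tfap2c. Pdgfra and Kdr, receptor kinase genes on either side of Kit, had 6 and 4 regions, and neither window shared a region with that of Kit. Boll, a relative of Dazl, had 9 regions with 14 and 13 intervals in wild-type replicates 1 and 2, while Nanos1 had 1 and Nanos2 had 0. Zbtb32, a relative of Zbtb16, had 8 regions, or 7.07 per 100 kb. With flanks of 10 kb, Boll had 1 region and Zbtb32 had 1, beside 0 at Dazl and 2 at Zbtb16. Both knockout lists had 0 intervals at all 25. These genes were compared by counts alone, and no difference between them was tested.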
